A study of Salmo salar with 6 samples.

Results

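The genes described here code for the ligands, receptors, transducers and nuclear targets of the Wnt, TGF-beta and BMP, FGF and Notch pathways, with the Hedgehog, VEGF and PDGF, and EGFR and neuregulin genes measured beside them. They were taken by a rule on the gene symbol that RefSeq gives for each array probe, and the rule uses no measured value. The rule took 81 genes with 1 probe each, out of 25460 genes to which the 42386 probes of the array could be traced. Of the 81, 27 belonged to TGF-beta and BMP signalling, 19 to Wnt, 11 to FGF, 9 to Notch, 6 to Hedgehog, 6 to VEGF and PDGF, and 3 to EGFR and neuregulin. Of all probes, 8155 carried a symbol through which they could have been taken, so gene copies known only by a locus number are not covered.

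HK (head kidney, the main blood-forming and interrenal organ of teleosts) was sampled from unvaccinated Atlantic salmon juveniles that went through smoltification during a feeding trial of 133 days. The control diet and the AQUOLIVE® diet differed in the inclusion of an olive fruit extract at 0.15%, and no strain or genotype is given for the fish of either diet. Each of the 6 one-color arrays held a pool of RNA from 6 fish, with 3 pools and 18 fish per diet, and the pool is the unit of replication. Because fish from the same tanks entered all pools of a diet, the p-values below measure the spread between pools and not that between tanks.

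These families are the main routes by which neighbouring cells signal to each other. Secreted Wnt proteins bind Frizzled receptors and stabilise beta-catenin. TGF-beta, activin and BMP ligands pair type I and type II receptor kinases that phosphorylate Smad proteins, whereas FGF, VEGF, PDGF and EGF ligands act through receptor tyrosine kinases. Notch differs in that its ligands are held in the membrane of the adjacent cell, and the cleaved receptor itself enters the nucleus. In vertebrate blood-forming tissue these signals are known for their roles in the stem cell niche, in vessel growth and in the choice of lineage. Functions given for single genes below come from work in mammals and zebrafish, since salmon copies have rarely been studied one by one.

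The array detected about the same number of these genes as it missed. A probe counts as above background where the scanner software marks its signal well above that of its surroundings, and 40 of the 81 genes reached this on at least 3 of 6 arrays and were tested. That is 49.4% of the genes, against 60.9% of all probes. On all 6 arrays, 23 genes were above background, and 29 genes (35.8%) were above background on none, against 19.3% of all probes. None of the 81 had a saturated or outlier spot on any array.

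**Figure D1:**
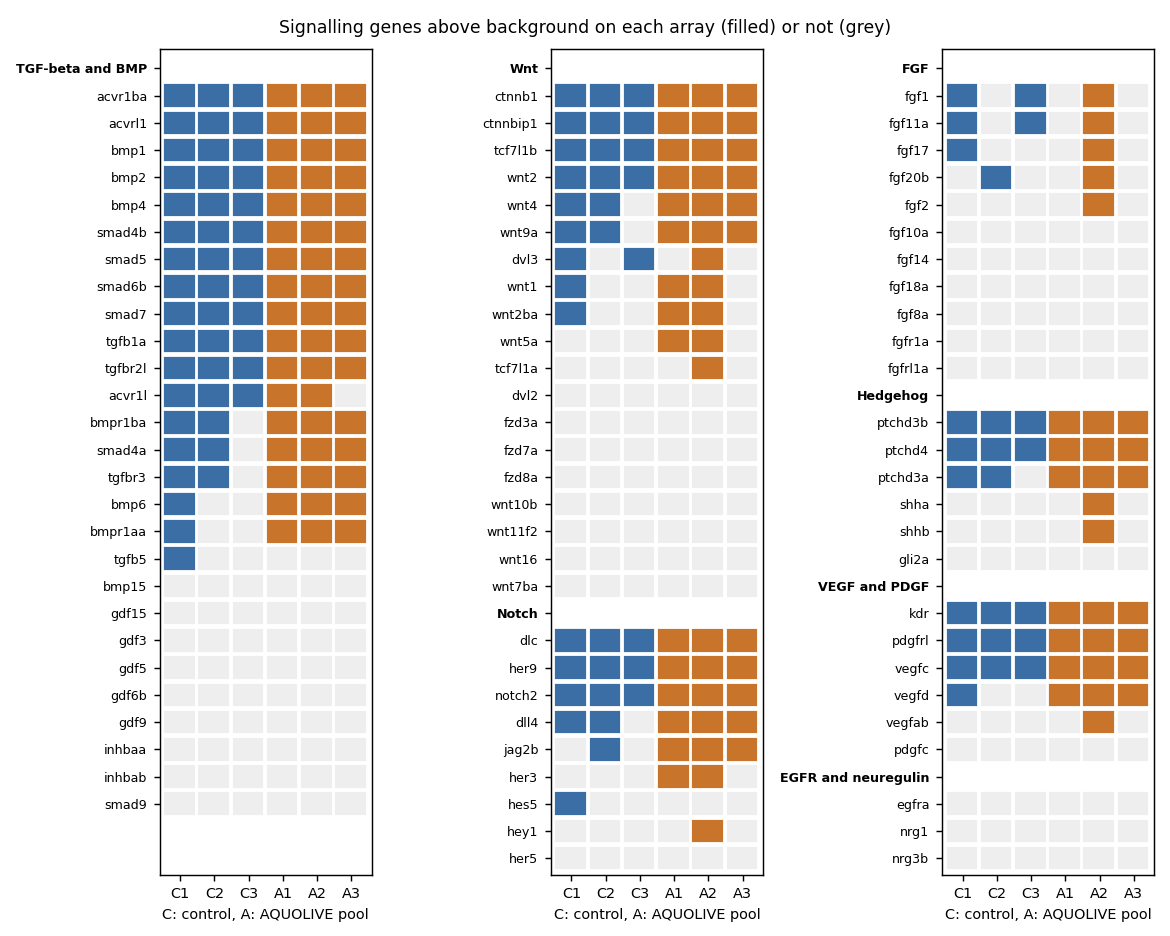
Detection of the 81 signalling genes on the 6 arrays, by family. Columns are the control pools (C1 to C3) and the AQUOLIVE® pools (A1 to A3), a filled cell marks a signal well above background and a grey cell one that was not. All 7 TGF-beta and BMP receptors are among the 40 tested genes, whereas no Frizzled, FGF or EGF receptor was above background on any array.

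Detection differed by the role of the gene. Of 41 ligands, 15 were tested, of 16 receptors 10, and of 12 intracellular transducers 7. Among TGF-beta and BMP genes the 7 receptors were all tested, while 8 of 13 ligands were above background on no array. Those 8 were bmp15, gdf3, gdf5, gdf6b, gdf9, gdf15 and the activin subunits inhbaa and inhbab. The 3 Frizzled receptors fzd3a, fzd7a and fzd8a and the FGF receptors fgfr1a and fgfrl1a were likewise above background on no array. So were egfra and its family's ligands nrg1 and nrg3b. For these genes the arrays set only an upper bound, and a weak probe cannot be told apart from a scarce transcript.

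Detection also moved with the array. AQUOLIVE® pool 2 had 76.0% of all probes and 50 of the 81 genes above background, and control pool 3 had 42.5% of probes and 27 genes. The other arrays lay between, at 33 to 42 genes. In all, 6 genes were above background only in AQUOLIVE® pool 2, namely hey1, vegfab, tcf7l1a, shha, shhb and fgf2, and 2 only in control pool 1, namely tgfb5 and hes5. A further 4 were above background on 2 arrays. For fgf20b these were control pool 2 and AQUOLIVE® pool 2, for fgf17 control pool 1 and AQUOLIVE® pool 2, and for her3 and wnt5a AQUOLIVE® pools 1 and 2. The median processed signal ranged from 16.7 to 108 over the arrays, with control pool 3 the lowest. All arrays were on different slides, whose numbers form 1 series per diet, with the control arrays scanned first, so that diet and slide series cannot be told apart.

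Between the diets, no signalling gene passed the adjusted threshold. With limma and Benjamini-Hochberg adjustment over the 25826 probes tested, 0 of 40 genes were called, where 0.0155% of all probes were, and the smallest adjusted p of the 40 was 0.139. At an unadjusted p under 0.05 there were 10 genes (25%), against 18.1% of all probes. Of these, 6 were higher in fish fed AQUOLIVE® (9.56% of all probes were) and 4 were lower (8.58% of all probes). The methods' t-test, run here with a p threshold of 0.05 before adjustment and a minimum absolute log2 fold change (log2 FC) of 0.8, was passed by 5 genes, against 9.05% of all probes. Of the 5, 4 were higher (5.22% of all probes) and 1 was lower (3.83%), and once p-values of that test were adjusted by Benjamini-Hochberg, 0 probes of the whole array were left. The counts of genes were thus close to the background of the array.

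The 40 genes divided evenly, with 20 above and 20 below a log2 FC of 0, where 48.6% of all probes were above it. Their median log2 FC was -0.03, and that of all probes -0.02. The median absolute log2 FC was 0.52, against 0.44 for all probes, with a median SE of 0.31. The 3 pools of one diet lay clear of the 3 pools of the other in 11 genes (27.5%), against 29.7% of all probes. Since none passed the adjusted threshold, the fold changes below are measurements with their errors and not called changes.

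**Figure D2:**
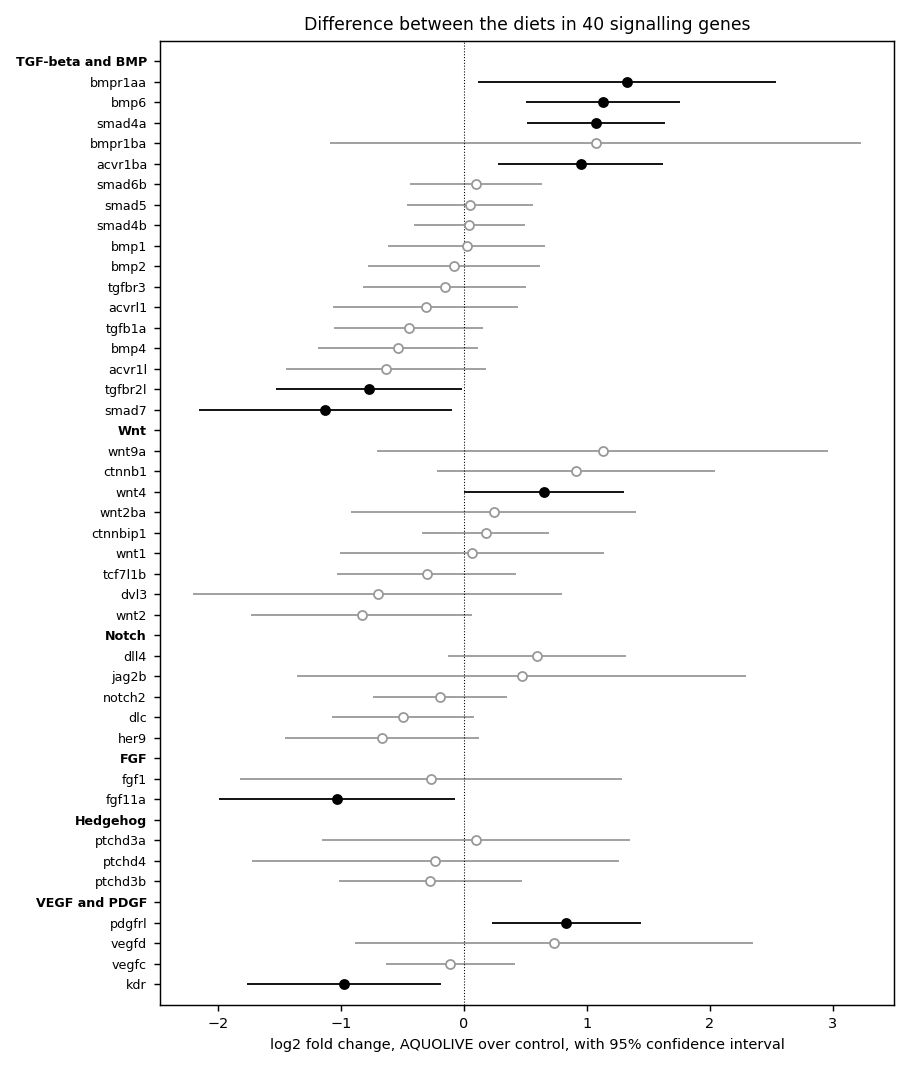
Difference between the diets in the 40 signalling genes tested. The x axis gives the log2 FC of AQUOLIVE® over control with its 95% confidence interval from limma, sorted within each family, and black points mark an unadjusted p under 0.05. TGF-beta and BMP genes span a log2 FC of -1.13 to 1.33, with genes of the same route on both sides of 0.

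TGF-beta and BMP signalling made up 17 of the 40 tested genes and held 6 of the 10 at an unadjusted p under 0.05, where 18.1% of all probes passed. Among the 6 were bmp6 and bmpr1aa, which passed the filter on background through the AQUOLIVE® pools. Of the 17, 9 were above and 8 below 0, with a median log2 FC of 0.02. The 4 higher at that threshold were bmp6, smad4a, acvr1ba and bmpr1aa, and the 2 lower were smad7 and tgfbr2l. Ligands and receptors were each found on both sides of 0. The 3 transducers tested were above 0, smad4a at 1.07, smad4b at 0.04 and smad5 at 0.05.

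Among the ligands, bmp6 was the gene with the clearest difference. BMP6 is known in mammals as the ligand made by liver endothelium that drives hepcidin and so iron balance. Normalized log2 signals of bmp6 (probe Ssa#XM_014181053.1) were 4.28, 4.77 and 4.51 in control pools 1 to 3 and 5.99, 5.38 and 5.58 in AQUOLIVE® pools 1 to 3. The diets did not overlap, and the log2 FC was 1.13 ± 0.26 (SE), with an adjusted p of 0.146 in limma. All 6 fits that left out 1 pool kept an unadjusted p under 0.05. However, only 1 of 3 control pools was above background against all 3 AQUOLIVE® pools. Bmp6 thus entered the test through the diet in which it was high. With normexp background correction the log2 FC was 0.23, and the unadjusted p under 0.05 was lost. Normexp was run with an offset of 50, a setting that by itself draws fold changes of probes with a weak signal toward 0. The part of that setting in the value of bmp6 was not tested.

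The other ligands lay closer together. For bmp4, which patterns the ventral embryo and acts in the emergence of blood stem cells, the log2 FC was -0.54 ± 0.27, from values of 6.58, 7.40 and 7.12 in the control pools and 6.40, 6.59 and 6.51 in the AQUOLIVE® pools. The lowest control pool lay inside the AQUOLIVE® range, so the diets overlapped. For tgfb1a, the immune-suppressive TGF-beta, the log2 FC was -0.45 ± 0.25, and for bmp2, close kin of bmp4, it was -0.08 ± 0.29. The product of bmp1 is a protease that trims procollagen and chordin and not a BMP ligand, and its log2 FC was 0.02 ± 0.26.

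Receptors of the superfamily differed among themselves. The type I activin receptor acvr1ba (ALK4 in mammals, which carries activin and nodal signals) gave 10.56, 10.92 and 10.15 in the control pools and 11.67, 11.22 and 11.59 in the AQUOLIVE® pools. Every AQUOLIVE® pool was above every control pool, at a log2 FC of 0.95 ± 0.28 and an adjusted p of 0.182. Acvr1ba was above background on all arrays and passed an unadjusted p of 0.05 in 6 of 6 fits without 1 pool. The neighbouring gene acvrl1 (ALK1, the endothelial receptor for BMP9 and BMP10) has no other protein-coding gene between it and acvr1ba in the gene table, and its log2 FC was -0.31 ± 0.31.

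For tgfbr2l, a copy of the type II receptor that binds TGF-beta first, signals were 7.15, 6.81 and 7.60 in the control pools and 6.00, 6.75 and 6.49 in the AQUOLIVE® pools. The diets lay apart by a small gap, between control pool 2 and AQUOLIVE® pool 2. The log2 FC was -0.77 ± 0.31 with an adjusted p of 0.269, and it was -0.43 with normexp background correction and 0.24 in the deposited log2 values before any scaling. In those values the median of all probes was shifted by 0.98, and relative to that shift tgfbr2l was at -0.74. An unadjusted p under 0.05 was lost without control pool 1 or 3 (log2 FC -0.74 and -0.53) and without AQUOLIVE® pool 1 or 3 (-0.57 and -0.81). It was also lost with normexp, in the deposited log2 values, with quantile normalization (-0.78) and without a filter (-0.77).

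BMP type I receptors were variable. For bmpr1aa (BMPR1A or ALK3) the values were 4.58, 4.37 and 3.46 in the control pools and 6.06, 4.53 and 5.79 in the AQUOLIVE® pools. AQUOLIVE® pool 2 lay inside the control range, so that this gene, alone of the 10, overlapped between diets. Its log2 FC was 1.33 ± 0.50, with an adjusted p of 0.252. Only 1 of 3 control pools was above background against all 3 AQUOLIVE® pools, so bmpr1aa, like bmp6, entered the test through the diet in which it was high. The related bmpr1ba gave 6.04, 4.84 and 4.28 against 7.92, 4.62 and 5.83, a log2 FC of 1.07 ± 0.89 in which AQUOLIVE® pool 1 stood far above the rest, and 0.17 without that pool. The remaining receptors were acvr1l at -0.63 ± 0.34 and the co-receptor tgfbr3 (betaglycan) at -0.16 ± 0.27.

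Smad proteins carry the receptor signal to the nucleus, and Smad4 is the partner that all receptor-activated Smads share. The array held 2 probes with a smad4 symbol. For smad4a (probe Ssa#XM_014129908.1) the signals were 5.17, 5.02 and 4.88 in the control pools and 6.41, 5.94 and 5.94 in the AQUOLIVE® pools. The diets were separated by more than the range within either, with a log2 FC of 1.07 ± 0.23. Its adjusted p of 0.139 was the smallest of the 40 genes, and all 6 fits without 1 pool kept an unadjusted p under 0.05. Control pool 3 was not above background for smad4a, and with normexp background correction the log2 FC was 0.29. With normexp its unadjusted p under 0.05 was lost.

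The other copy, smad4b (probe Ssa#XM_014172497.1), gave 9.42, 9.40 and 9.33 in the control pools and 9.37, 9.51 and 9.40 in the AQUOLIVE® pools. These 6 values interleaved, and the log2 FC was 0.04 ± 0.19, with a 95% confidence interval of -0.41 to 0.50, and -0.18 under normexp background correction. Since smad4a was singled out by its own difference, the contrast between the copies is a description, and no p-value is given for it.

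Of the inhibitory Smads, smad7 blocks TGF-beta receptors and is itself induced by the pathway. Its signals were 7.48, 9.02 and 7.76 in the control pools and 6.82, 6.91 and 7.15 in the AQUOLIVE® pools. All AQUOLIVE® pools were below all control pools, but control pool 2 stood far above the other control pools. The log2 FC was -1.13 ± 0.43, with an adjusted p of 0.253, and -0.71 without control pool 2 and -0.75 with normexp background correction. An unadjusted p under 0.05 was lost without control pool 3 (-1.24) and without AQUOLIVE® pool 1, 2 or 3 (-1.06, -1.10 and -1.22). In the deposited log2 values the log2 FC of smad7 was -0.08, and -1.06 relative to the shift of all probes. The BMP-directed inhibitor smad6b was at 0.10 ± 0.22, and smad5, a transducer of BMP signals, at 0.05 ± 0.21. For smad9, another BMP transducer, no array was above background.

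**Figure D3:**
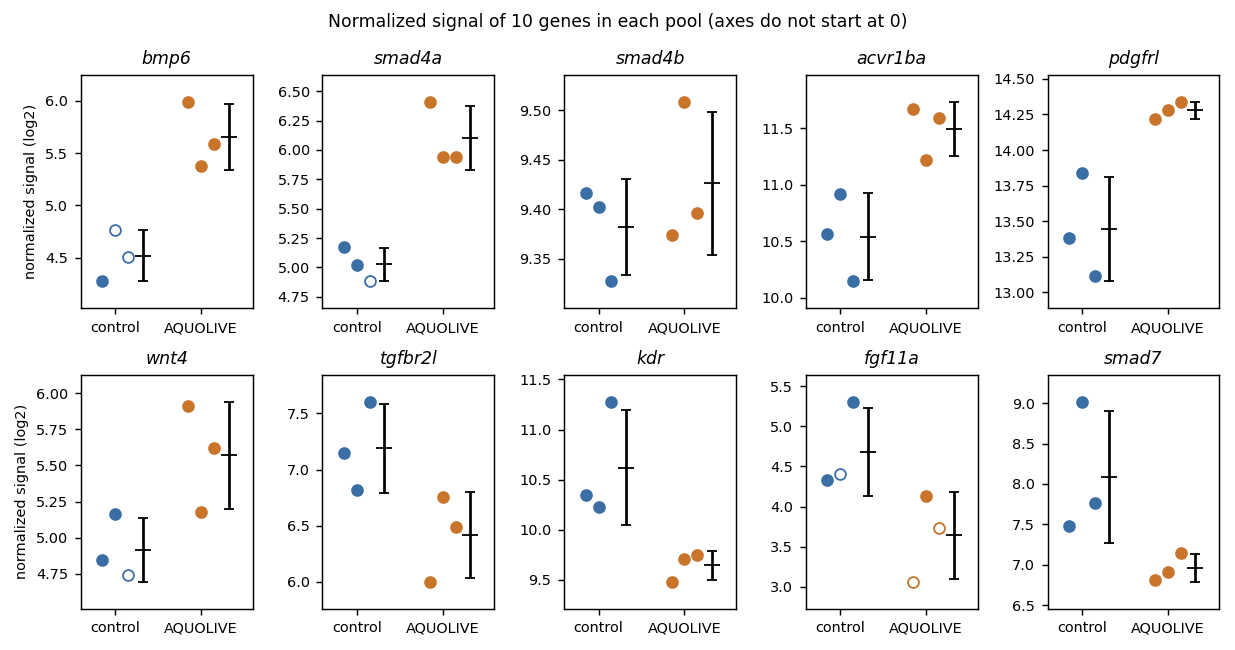
Normalized signal (log2) of 10 signalling genes in each pool. Blue points are control pools and orange points AQUOLIVE® pools, open points were not above background, bars are mean ± SD (n = 3 pools), and the axes do not start at 0. In 9 of the genes the diets do not overlap, and smad4b is shown beside its copy smad4a.

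Wnt signalling had 9 tested genes, whose log2 FC spanned -0.83 to 1.13. Of the 9, 1 was higher and 0 lower at an unadjusted p under 0.05 in limma, against 18.1% of all probes, with a median log2 FC of 0.18 and a smallest adjusted p of 0.275. That gene was wnt4, known in mammals for kidney and gonad development. Its signals were 4.84, 5.16 and 4.74 in the control pools and 5.91, 5.18 and 5.62 in the AQUOLIVE® pools. AQUOLIVE® pool 2 lay just above control pool 2, control pool 3 was not above background, and the log2 FC was 0.65 ± 0.27. The p passed 0.05 in 2 of 6 fits without 1 pool, and was lost without control pool 1 or 3 (0.72 and 0.62) and without AQUOLIVE® pool 1 or 3 (0.48 and 0.63). It was also lost with normexp background correction (0.28), scaling to the 75th percentile (0.98), loess against the mean of all arrays (0.63) and in the deposited log2 values (2.73). Relative to the shift of all probes, the deposited value of wnt4 was 1.75.

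Beta-catenin carries the Wnt signal into the nucleus and also anchors cadherins at cell junctions. Its gene ctnnb1 gave 12.76, 12.58 and 11.09 in the control pools and 12.89, 13.03 and 13.25 in the AQUOLIVE® pools. The diets did not overlap, and control pool 3 lay far below its group. The log2 FC was 0.91 ± 0.47 with an adjusted p of 0.339, and 0.36 without control pool 3. The inhibitor ctnnbip1, which keeps beta-catenin off its DNA-binding partners, was at 0.18 ± 0.21, and one of those partners, tcf7l1b, at -0.30 ± 0.30.

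The largest log2 FC of the Wnt genes, 1.13 ± 0.76, was that of the ligand wnt9a, which in zebrafish acts on blood stem cells as they form in the aorta. Control pools gave 8.25, 7.64 and 5.27, and AQUOLIVE® pools 7.94, 8.09 and 8.51. The range of the control pools was wider than the difference, control pool 3 was not above background, and without that pool the log2 FC was 0.25. At the other end, wnt2 gave 8.72, 9.68 and 10.00 against 8.59, 8.88 and 8.44, a log2 FC of -0.83 ± 0.37. Control pool 1 lay within the AQUOLIVE® range of wnt2. The ligands wnt1 (0.07 ± 0.44) and wnt2ba (0.24 ± 0.48) and the transducer dvl3 (-0.70 ± 0.62), which links Frizzled to beta-catenin, were above background on 3 arrays each. Of the other 10 Wnt genes, 8 were above background on no array, among them dvl2, wnt7ba, wnt10b, wnt11f2 and wnt16.

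No Notch gene reached an unadjusted p of 0.05 in limma, where 18.1% of all probes did, and only 5 of 9 were tested. The receptor notch2 gave 10.51, 10.41 and 10.93 in the control pools and 10.33, 10.50 and 10.44 in the AQUOLIVE® pools. The AQUOLIVE® values spread over less than the control values and overlapped them, at a log2 FC of -0.19 ± 0.23, or 0.48 in the deposited log2 values (-0.50 relative to the shift of all probes). Its ligands were measured by 3 probes. The Delta ligand dlc, which in zebrafish acts in somites and vessels, gave 8.30, 7.86 and 7.74 against 7.32, 7.63 and 7.46, a log2 FC of -0.49 ± 0.24 with no overlap and an adjusted p of 0.323. For dll4, the Delta ligand of sprouting vessels, the log2 FC was 0.60 ± 0.30, from 5.43, 4.97 and 4.51 against 5.61, 5.31 and 5.78. There AQUOLIVE® pool 2 lay below control pool 1. The ligand jag2b was at 0.47 ± 0.76, with 1 of 3 control pools above background, and at -0.32 without control pool 3.

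Many Hes and Hey repressors are direct nuclear targets of Notch, and the her genes are their relatives in fish. Of 5 on the array, her9 alone was tested. It gave 5.90, 5.75 and 6.62 in the control pools and 5.38, 5.81 and 5.09 in the AQUOLIVE® pools, and the log2 FC was -0.67 ± 0.33. AQUOLIVE® pool 2 lay within the control range. The others, her3, her5, hes5 and hey1, were above background on at most 2 arrays.

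FGF genes were close to the limit of detection. Of 11, 2 were tested and 0 were above background on all 6 arrays. Both tested genes were above background in control pools 1 and 3 and AQUOLIVE® pool 2 only. FGF11 belongs to the intracellular FGF-like proteins that bind sodium channels and no FGF receptor. Its salmon gene fgf11a gave 4.33, 4.40 and 5.30 in the control pools and 3.07, 4.13 and 3.74 in the AQUOLIVE® pools. This was a log2 FC of -1.03 ± 0.40 with an adjusted p of 0.256. The diets lay apart, but AQUOLIVE® pools 1 and 3 and control pool 2 were not above background, and with normexp background correction the log2 FC was -0.31. An unadjusted p under 0.05 was lost without control pool 3 (-0.82) and without AQUOLIVE® pool 1 or 3 (-0.74 and -1.08). It was also lost with normexp, with a floor for values below background (-0.68) and in the deposited log2 values (-0.32). Relative to the shift of all probes, the deposited value of fgf11a was -1.30.

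The secreted fgf1, a ligand of all FGF receptors, gave 4.40, 4.29 and 6.29 against 3.96, 5.41 and 4.82. Control pool 3 was the highest of the 6 and the diets overlapped widely. The log2 FC of -0.26 ± 0.64 turned to 0.36 without control pool 3 and to 0.12 without AQUOLIVE® pool 1. It was 0.04 with scaling to the 75th percentile. In the deposited log2 values it was 0.52, and -0.46 relative to the shift of all probes. The ligands fgf8a, fgf10a and fgf18a, known for limb, lung and skeletal growth, and the intracellular fgf14 were above background on no array.

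Hedgehog signalling itself was hardly measured. The 3 tested genes of the 6 in this family were ptchd3a, ptchd3b and ptchd4, which code for proteins with a Patched-like domain and are not the Hedgehog receptor. Ptchd3b gave 7.06, 8.04 and 7.43 in the control pools and 7.48, 7.14 and 7.09 in the AQUOLIVE® pools, at a log2 FC of -0.27 ± 0.31, or 0.98 in the deposited log2 values, the same as the shift of all probes there. Its diets overlapped, as did those of ptchd3a (0.10 ± 0.52) and ptchd4 (-0.23 ± 0.62). The Sonic hedgehog ligands shha and shhb were above background on 1 array each, and the transcription factor gli2a on none.

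Of the VEGF and PDGF genes, 4 of 6 were tested, with 1 higher and 1 lower at an unadjusted p under 0.05. Of all probes, 9.56% were higher and 8.58% lower at that threshold. The higher was pdgfrl, whose product resembles the outer part of the PDGF receptor but has no kinase. It gave 13.38, 13.84 and 13.11 in the control pools and 14.22, 14.28 and 14.34 in the AQUOLIVE® pools. The 3 AQUOLIVE® pools agreed within 0.06 (SD) and lay above every control pool, at a log2 FC of 0.83 ± 0.25 and an adjusted p of 0.190. The log2 FC was 1.27 with normexp background correction, and without AQUOLIVE® pool 3 it was 0.81, with an unadjusted p just over 0.05.

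The lower was kdr, a VEGF receptor of endothelial cells. Signals of kdr (probe Ssa#XM_014168997.1) were 10.35, 10.23 and 11.28 in the control pools and 9.48, 9.71 and 9.75 in the AQUOLIVE® pools. The diets did not overlap, and control pool 3 was the highest by far. The log2 FC was -0.97 ± 0.33 with an adjusted p of 0.218, and -0.63 without control pool 3. It was -0.46 with normexp background correction. The deposited log2 values gave 0.28 before scaling, and -0.70 relative to the shift of all probes. Its unadjusted p passed 0.05 in 3 of 6 fits without 1 pool and was lost without AQUOLIVE® pool 1, 2 or 3 (-0.89, -1.01 and -1.02).

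Markers of the organ were present, with probes tested for 5 of 6 erythroid and 4 of 7 granulocyte genes listed and for the interrenal genes star and hsd3b1, while cyp17a1 was below the filter. As HK is a mixture of cells, fewer cells of a type and less RNA per cell cannot be told apart in these pools. The endothelial markers with a probe were kdr itself and both copies of pecam1, 2 of 7 genes listed. Pecam1a was at 0.09 and pecam1b at -0.07, and the summed normalized signal of the 3 probes was 2690 to 3486 in the control pools and 1899 to 2986 in the AQUOLIVE® pools. Of the stromal markers, 3 of 7 genes had a probe, with col1a1a at 1.56, col1a1b at 1.02, acta2 at 0.68 and vim at -0.31. Their sum was 3696 to 8469 in the control pools and 7015 to 14583 in the AQUOLIVE® pools. Macrophage markers (3 of 6 genes) summed to 36668 to 53325 and 26844 to 30584, and T cell markers (2 of 8 genes) to 305 to 1084 and 1148 to 1321. Neither sum overlapped between diets, nor did the interrenal and chromaffin sum, which held th alone (28 to 83 and 16 to 25). The erythroid (40107 to 51450 and 36074 to 45342.5), B cell (2050 to 4689 and 3775 to 4118) and granulocyte sums (75073 to 84480 and 63032 to 87911) did overlap. The erythroid sum held 4 of 5 probes and left out hba, which had no value in AQUOLIVE® pool 2. Hba gave 15.79, 15.62 and 15.58 in the control pools and 16.48 and 16.63 in AQUOLIVE® pools 1 and 3. Of single probes 29.7% did not overlap, and no such share was computed for sums. Control pool 3 was the lowest control pool in all 4 T cell probes, and the highest control sum, 1084, lay just below 1148. The macrophage markers were at -0.85 (cd68), -0.44 (mpeg1.1) and -0.03 (c1qa). The T cell probes went both ways, with cd8a at 1.66 and 0.67 and cd3e at 0.68 and -1.12. In control pool 3 both cd3e probes and 1 cd8a probe were not above background. Single markers at an unadjusted p under 0.05 in limma were hba (0.90) of erythroid cells, csf3r (1.28) of granulocytes, th (-1.34) of chromaffin cells, cd68 (-0.85) of macrophages, acta2 and kdr. Of 27 marker probes these were 3 higher and 3 lower, where 9.56% of all probes were higher and 8.58% lower. For th, control pool 3 and AQUOLIVE® pool 3 were not above background. None of the 27 marker probes tested passed the adjusted threshold, and the part of cell composition in the signalling genes was not tested.

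The ligands of the VEGF receptors differed less. For vegfc, which acts on lymphatic vessels, the log2 FC was -0.11 ± 0.22, and for its relative vegfd 0.73 ± 0.67, with 1 of 3 control pools above background, and 0.039 without AQUOLIVE® pool 1. In vegfd, AQUOLIVE® pool 1 at 6.80 was the highest and AQUOLIVE® pool 2 at 4.10 the lowest of all 6 pools. The ligands vegfab and pdgfc were above background on 1 and 0 arrays.

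The spread within each diet was uneven between pools. Control pool 3 was the farthest of its diet from the other pools in 23 of the 40 genes (57.5%), against 48.8% of all probes. Control values varied more than AQUOLIVE® values, with a median SD of 0.45 and 0.24 log2, the same as for all probes. AQUOLIVE® pool 2 was the nearest to the control mean in 22 of 40 genes, and in 44.5% of all probes. Among 23 genes above background on all 6 arrays, 5 had an unadjusted p under 0.05, against 16.0% of such probes, and among the 17 others also 5, against 22.1%.

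**Figure D4:**
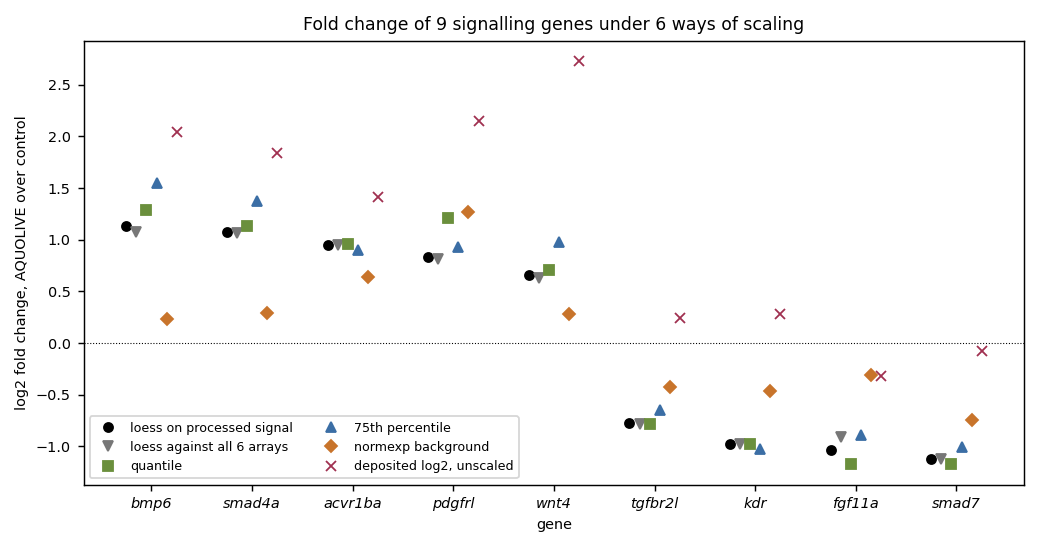
Log2 FC of 9 signalling genes (AQUOLIVE® over control) under 6 ways of scaling the arrays. The 9 are the genes whose diets do not overlap and whose unadjusted p is under 0.05. Normexp was run with an offset of 50, which by itself draws fold changes of probes with a weak signal toward 0. Kdr and acvr1ba, with mean signals of 10.13 and 11.02 against a median of 7.06 for tested genes, also came nearer to 0. Why normexp values differ from loess values was not tested. In the unscaled deposited log2 values the median of all probes was shifted by 0.98. Loess, quantile, 75th percentile and normexp values of a gene lie on the same side of 0, with the normexp values nearer to 0 than the loess values in all but pdgfrl (0.23 against 1.13 for bmp6, -0.46 against -0.97 for kdr), and the unscaled deposited log2 values lie above the loess values throughout, with kdr and tgfbr2l on the other side of 0.

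Partners and modulators of these pathways that the symbol rule does not take were read from a list of 215 genes, of which 69 had 78 probes on the array and 51 probes were tested. They divided into 26 above and 25 below 0, and none passed the adjusted threshold. At an unadjusted p under 0.05 in limma there were 2 higher and 3 lower, a smaller share than the 18.1% of all probes.

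The secreted Wnt inhibitor dkk1b was the first of these by p. It gave 6.62, 6.36 and 6.88 in the control pools and 5.47, 5.72 and 5.44 in the AQUOLIVE® pools, with no overlap, a log2 FC of -1.08 ± 0.23 and an adjusted p of 0.137. The other lower probes belonged to Notch signalling. Rfng, a Fringe enzyme that adds sugars to Notch, was at -1.18 ± 0.31 (adjusted p = 0.166), and mib1, the ubiquitin ligase that activates Notch ligands, at -1.07 ± 0.33 (adjusted p = 0.199). Neither overlapped between diets, and for rfng control pool 3 was not above background.

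The higher probes were pik3ca and btc. Pik3ca, the catalytic subunit of a PI3-kinase downstream of VEGF, PDGF and EGF receptors, gave 5.72, 5.41 and 6.04 against 6.57, 7.29 and 7.05, a log2 FC of 1.25 ± 0.29 with an adjusted p of 0.147. The EGF receptor ligand betacellulin, btc, was at 1.51 ± 0.45 (adjusted p = 0.188). For btc 1 of 3 control pools was above background against all 3 AQUOLIVE® pools. Like bmp6, btc thus entered the test through the diet in which it was high.

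The widest difference of the list by size was not one of these. The secreted Wnt antagonist sfrp2l gave 8.98, 7.99 and 8.15 in the control pools and 2.83, 9.22 and 2.89 in the AQUOLIVE® pools. AQUOLIVE® pool 2 was the highest of the 6. AQUOLIVE® pools 1 and 3 were far below all controls and not above background. The size of the log2 FC of -3.39 ± 1.72 thus rests on signals not above background, and its adjusted p was 0.337. Other genes of the list known to be induced by BMP, FGF or Notch signalling and given here were near 0 or above it. For BMP signalling id2a was at 0.03 ± 0.21 and id3 at 0.02 ± 0.24, for FGF signalling dusp6 was at 0.00 ± 0.22 and spry4 at 0.09 ± 0.28, and for Notch signalling nrarpa was at 0.57 ± 0.56. Nrarpa gave 5.97, 6.36 and 6.33 in the control pools and 5.89, 6.43 and 8.06 in the AQUOLIVE® pools. Only AQUOLIVE® pool 3 stood far above the rest. As these targets were chosen after their values were seen, their common direction is not a result.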

How the data were processed

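RNA of HK was hybridized to 6 one-color Agilent arrays. The authors deposited scanner intensity values per spot, extracted with Feature Extraction 10.7.3.1 per the file headers, with outlier and background flags, and a log2 value per spot, used as an alternative. The deposited log2 values were checked against the log2 of the signal after background subtraction and equal it (tolerance 1e-08).

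In R 4.3.3 processed signals were put on the log2 scale, outlier spots were dropped, and a probe was tested if its signal was well above background on 3 or more of the 6 arrays. Normalization was a robust loess (span 0.3, 4 iterations) of the log2 ratio of an array to the control mean; the methods give neither reference nor span. Diets were compared without a block by limma 3.58.1 (lmFit and eBayes, two-sided, Benjamini-Hochberg over all kept probes, threshold 0.05), and by the methods' t-test (unadjusted p under 0.05), with a minimum absolute log2 FC of 0.8, which the methods do not state and which is the lower edge of the fold change intervals the study used. With 3 pools per diet, the number of arrays limits the precision. The fit was tested on simulated data.

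Of 42386 probes, 25641 were found by RefSeq accession in RefSeq's gene table for Ssal_v3.1. Members given on every array were those whose diets did not overlap and whose unadjusted p was under 0.05, the member of highest mean signal in each of 7 families, and the second copy of a gene pair; other genes given by array (bmp4, bmpr1aa, bmpr1ba, wnt9a, wnt2, dlc, dll4, her9, dkk1b, pik3ca, sfrp2l) and the feedback targets were chosen after their values were seen. The members and lists were chosen with earlier results of these data known. Alternatives were other scalings, filters and background corrections, a floor, a replicate block and fits without 1 pool. For normexp the median spot signal was used, as the files hold no mean signal, and an offset of 50 was added. Such an offset draws fold changes of probes with a weak signal toward 0. Growth, plasma and challenge data were not analysed here.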

Additional observations from a re-analysis of the deposited data

How the results depend on the processing

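No signalling gene passed the adjusted threshold under any alternative run. The count at an unadjusted p under 0.05 (10, 6 higher and 4 lower) was 4 (0 lower) in the deposited log2 values, 5 (2 higher) when all 6 arrays had to be above background, 3 (2 higher, 1 lower) with normexp, and 5 (1 lower) by the methods' t-test. The share of all probes moved as well, from 18.1% to 13% in the deposited values and 10.1% with normexp. With the filter on all 6 arrays, where 23 signalling genes were tested, it was 19.8%. Genes past the t-test threshold with its minimum fold change (5) were 3 with the filter on all 6 arrays, 1 with normexp, 3 with quantile normalization and 0 after Benjamini-Hochberg adjustment of the t-test. The median log2 FC of -0.03 was 0.88 in the deposited values, whose median over all probes was shifted by 0.98. The 4 probes called among all were 16 with 75th percentile scaling, 0 in the deposited values, 30 with the filter on all 6 arrays, 1 without a filter, 7 with normexp, 2 with quantile normalization and 0 by the methods' t-test. The count of other pathway genes (5), for which alternatives were chosen after seeing the data, was 8 with the filter on all 6 arrays, 2 with normexp and 8 by the methods' t-test. Fewer genes were tested under the filter on all 6 arrays, and the cause of these differences was not tested for any alternative.

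Without 1 pool, the counts ranged from 3 to 11 for signalling genes (3 to 7 higher, 0 to 5 lower), from 2 to 5 past the t-test threshold, from 0 to 60 for all probes, from 4 to 9 for other pathway genes, and from -0.10 to 0.03 for the median. The 3 signalling genes were left without AQUOLIVE® pool 3 and 4 without AQUOLIVE® pool 1, both with 0 lower, 2 lower were left without AQUOLIVE® pool 2, and the 60 probes appeared without AQUOLIVE® pool 2. Of all probes, 9.15% had an unadjusted p under 0.05 without AQUOLIVE® pool 3 and 11.3% without AQUOLIVE® pool 1. That share was 16.5% without AQUOLIVE® pool 2 and 19.6% without control pool 1, where the 11 signalling genes appeared. The t-test threshold was passed by 2 genes without AQUOLIVE® pool 1, AQUOLIVE® pool 3 or control pool 3, and 9 other pathway genes appeared without AQUOLIVE® pool 2, control pool 1 or control pool 2.

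Of 219 values for the 14 genes given on every array by the rule, 174 kept their direction and side of the threshold, 36 lost the threshold and 9 turned. Those that turned were fgf1 (0.041 with 75th percentile scaling, 0.52 in the deposited values, and a range of -0.66 to 0.36 without 1 pool), kdr (0.28), notch2 (0.48), ptchd3b (0.98) and tgfbr2l (0.24) in the deposited values, and smad4b (-0.18) with normexp. The deposited values are unscaled, with the median of all probes at 0.98. Relative to that median, fgf1 was at -0.46, kdr at -0.70, notch2 at -0.50, ptchd3b at -0.0016 and tgfbr2l at -0.74.

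Pool numbers are not stated to pair the samples of the diets. Same-numbered arrays deviated together with r of 0.21, -0.06 and 0.03, which with 3 pools per diet cannot show whether they are paired. With the replicate number as a block in limma, 8 of 40 signalling genes had an unadjusted p under 0.05 (5 higher, 3 lower), against 16.1% of all probes. Of all probes 0 passed the adjusted threshold, and 6 other pathway genes had an unadjusted p under 0.05. The unpaired t-test takes no block.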
